A study of Mus musculus with 13 samples.

Results

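The 10 genes described here are the Notch receptors Notch1, Notch2, Notch3 and Notch4, the ligands Jag1 and Dll4, and the transcriptional targets Hey1, Hey2, Heyl and Hes1. The rule takes them by symbol, and they are 10 of the 27998 genes listed in every matrix. Single-cell RNA sequencing was performed on wild-type C57Bl/6J mice, with no transgene, mutation or treatment in any group. The samples were embryos at E8.5 (1 library analysed here) and at E10.5 (2 libraries), both described as digested after head and limbs were removed, whole hearts at E12.5, E14.5 and E16.5 (2 libraries each), and P3 hearts (2 labelled records in 1 matrix). The sources used here do not say if paired libraries were made from separate animals, so the p-values below measure the spread between libraries, which may be technical.

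In Notch signalling, a ligand on one cell (Jagged or Delta-like) binds a receptor on its neighbour, the receptor is cut, and its intracellular part enters the nucleus and joins the DNA-binding protein RBPJ to switch on genes of the Hes and Hey families. Hes and Hey proteins are basic helix-loop-helix repressors. In the heart the pathway is known for its work in endocardium, valve formation, trabeculation, arterial identity of vessels and smooth muscle coverage of vessels, while Hey1 and Hey2 are known as atrial and ventricular genes of the chamber muscle.

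In GRCm38.p6, the gene bodies lie on chromosome 2 (Notch1, 26457902 to 26503822, Dll4, 119325784 to 119335666, and Jag1, 137081451 to 137116520), chromosome 3 (Hey1, 8663359 to 8667038, and Notch2, 98013538 to 98150367), chromosome 4 (Heyl, 123233556 to 123249870), chromosome 10 (Hey2, 30832359 to 30842783), chromosome 16 (Hes1, 30065357 to 30067796) and chromosome 17 (Notch3, 32120820 to 32166896, and Notch4, 34564286 to 34588543). Promoter windows from RefSeq (GRCm38.p6, the 250 bases before the annotated start) were matched for 7 of the 10 genes, not for Hey1, Heyl and Hes1. The windows of Hey2 and Jag1 are shown because these genes had opposite patterns in ventricular and atrial muscle. Capitals mark the core letters of the RBPJ motif (TGGGAA, read here on the reverse strand as TTCCCA).
Hey2, chr10:30842784-30843033, minus strand: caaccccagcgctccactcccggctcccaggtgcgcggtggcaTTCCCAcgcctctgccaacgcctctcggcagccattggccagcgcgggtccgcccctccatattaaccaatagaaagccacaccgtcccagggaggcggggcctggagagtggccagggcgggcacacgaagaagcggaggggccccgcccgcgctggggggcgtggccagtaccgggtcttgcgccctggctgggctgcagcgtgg
Jag1, chr2:137116521-137116770, minus strand: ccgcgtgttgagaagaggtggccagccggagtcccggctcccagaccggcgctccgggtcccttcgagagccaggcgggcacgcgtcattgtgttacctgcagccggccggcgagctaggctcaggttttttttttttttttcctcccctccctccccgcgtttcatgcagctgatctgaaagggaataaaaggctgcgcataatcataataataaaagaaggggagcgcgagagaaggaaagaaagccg
The letters TGGGAA occurred on either strand in 1 of the 7 windows, that of Hey2, and in 21.6% of 32851 windows of this length. The E-box CACGTG was found in 0 of the 7 windows and in 6.02% of all windows. The match is a description of letters and not of a bound site.

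In total 80741 barcodes with at least 2000 UMIs entered, 4928 to 14675 per matrix, with a median of 10268 to 24516 UMIs per barcode. Clusters were named from marker genes, with the 10 genes and 40 other Notch pathway genes left out of the clustering, into ventricular and atrial cardiomyocyte-like, endocardium-like, vessel endothelium-like, mural-like (pericytes and smooth muscle) and mesenchyme-like cells. The defining markers fitted these names in the E12.5 to E16.5 hearts. Myl2 was at 14395 to 19211 CPM (UMIs of a gene per 1000000 UMIs of a class in a library) in ventricular against 536 to 927 in atrial cells, Npr3 at 136 to 365 in endocardium-like against 0.33 to 7.01 in vessel cells, Fabp4 at 268 to 6336 in vessel against 2.91 to 96.0 in endocardium-like cells, and Rgs5 at 1019 to 1037 in mural-like against 9.03 to 36.1 CPM in mesenchyme-like cells. Clusters were named mural-like at E16.5 and P3 only, and at E8.5 and E10.5 cells were named by lineage only (cardiomyocyte, endothelium, mesenchyme). Clusters with Rgs5 among their leading genes were also present at E12.5 and E14.5. They were left unnamed, entered no class in the main sums and are described at the end. The endocardium-like cluster of the P3 matrix had H19, Ccl21a, Igfbp5 and Npr3 among its leading genes. Ccl21a, known from lymphatic endothelium, also led a separate small cluster at E16.5, and no such cluster was separate at P3. The part of lymphatic cells in the P3 endocardium-like levels was not tested. At E10.5 a cluster of 2066 cells, and at E8.5 one of 373 cells, had Lhx2, Six3 and Otx2, genes known from the forebrain, among its leading genes, which goes against the described removal of the head. These cells entered no class used here. The library pairs shared 0.55% to 2.42% of the barcodes of the smaller library, 0.714 to 1.33 times the number that random draws from the barcode list give.

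**Figure D1:**
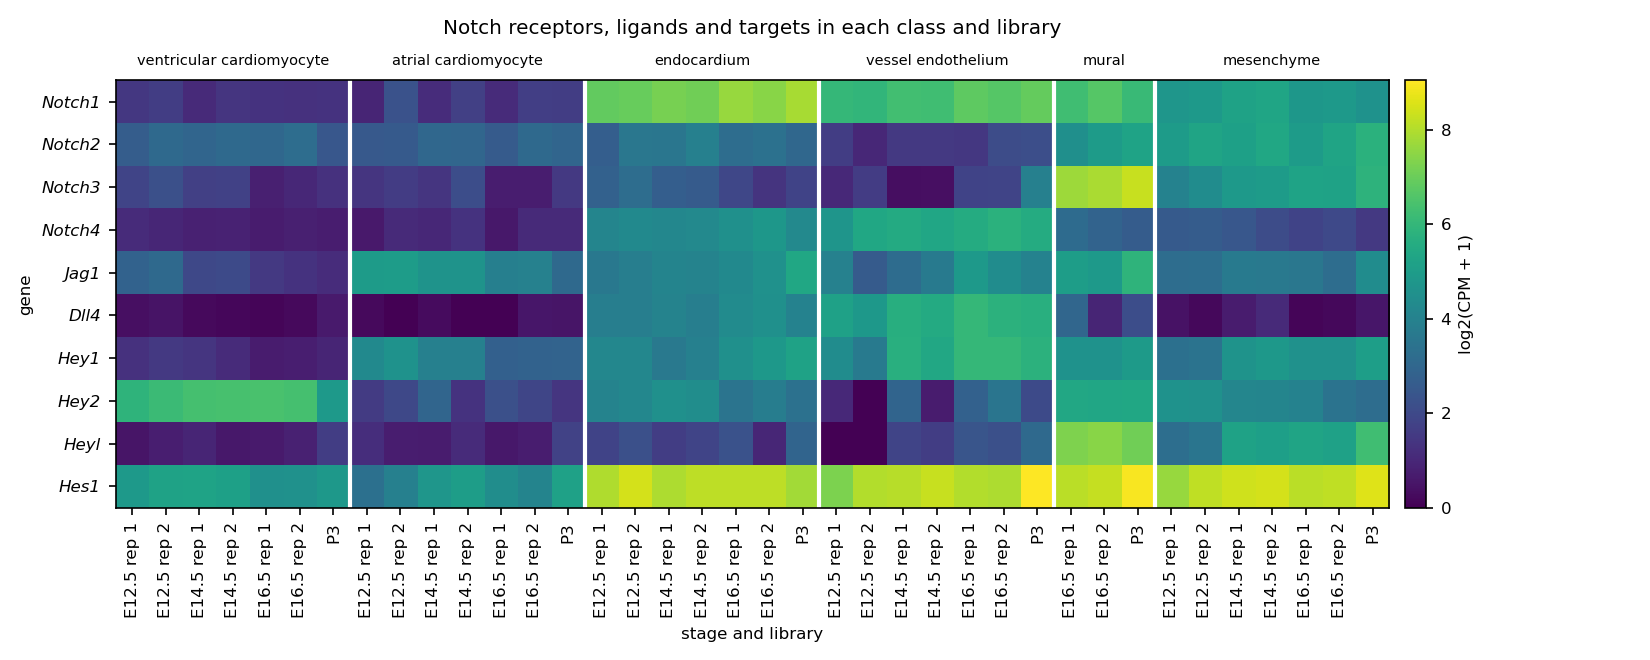
Level of the 10 genes, as log2(CPM + 1) of the UMI sum, in each class (blocks of columns) and library (columns, by stage). Notch1, Notch4 and Dll4 are bright in endocardium and vessel endothelium, Notch3 and Heyl in mural cells, Hey2 in ventricular and Jag1 and Hey1 in atrial cardiomyocytes among the muscle classes.

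All levels below are CPM of the UMIs summed over the cells of a class in 1 library, given in the order replicate 1 and replicate 2. Notch1, the main endothelial and endocardial receptor, was highest in endocardium-like cells, at 116 and 121 CPM (E12.5), 146 and 135 (E14.5), 202 and 172 (E16.5), and 230.2 in the P3 matrix. In vessel cells it was at 63.7 and 60.4, then 78.9 and 75.6, then 110.1 and 101, with 118 CPM (P3). Endocardium-like cells were above vessel cells in each library. Mural-like cells held 76.7 and 101 CPM (E16.5) and 68.6 (P3), and mesenchyme-like cells 26.2 to 38.5 CPM in the E12.5 to E16.5 hearts. In both cardiomyocyte classes Notch1 stood at 0.903 to 3.82 CPM, against 0.320 to 2.56 CPM in erythroid cells, which are not known for it, and it was above the erythroid cells of the same library in 5 of 6 libraries in each muscle class. Cardiomyocyte Notch1 was therefore not read as expression.

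Notch4, a receptor known from endothelium, had the opposite order of the endothelial classes, with 25.5 and 40.9 CPM in vessel cells at E12.5, 45.3 and 39.9 (E14.5), and 46.6 and 54.4 (E16.5). In endocardium-like cells it was at 16.4 and 18.5, 17.1 and 18.1, and 22.3 and 26.6 CPM. At P3 the levels were 46.5 in vessel and 18.2 CPM in endocardium-like cells. The vessel values lay above all endocardial values of the same stage. In mural-like cells Notch4 was at 8.05 and 6.29 CPM, in mesenchyme-like cells at 2.53 to 5.20, and in cardiomyocytes at 0.493 to 1.53 CPM. Barcodes with 100 UMIs or fewer, read as free RNA, held Notch4 at 2.37 to 4.42 CPM in these libraries. All cardiomyocyte values lay below that range.

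Notch2, a broadly expressed receptor, was a mesenchymal and mural gene in these hearts. Mesenchyme-like cells held 30.1 and 37.5 CPM (E12.5), 34.7 and 41.2 (E14.5), 30.6 and 38.3 (E16.5), and 53.7 (P3). Mural-like cells held 21.5 and 30.6 CPM (E16.5) and 36.6 (P3). Vessel cells were lowest, at 1.02 to 3.30 CPM from 1 to 10 UMIs per library, and endocardium-like cells lay between, at 5.58 to 14.496 CPM. Cardiomyocytes held 5.32 to 8.33 CPM (ventricular) and 4.70 to 7.60 CPM (atrial), above the 0 to 1.44 CPM of erythroid cells in all libraries. Barcodes with 100 UMIs or fewer, taken as free RNA, held Notch2 at 14.03 to 22.8 CPM in these libraries.

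Notch3, the receptor of smooth muscle and pericytes, was at 211 and 236 CPM in mural-like cells at E16.5 and at 312 CPM (P3). Mesenchyme-like cells held 14.99 and 20.1 CPM (E12.5), 28.0 and 30.4 (E14.5), 37.3 and 36.3 (E16.5), and 56.7 (P3). The mesenchymal stages did not overlap. Endocardium-like cells went the other way, from 5.93 and 8.48 CPM (E12.5) to 5.49 and 5.07, then 2.78 and 1.599 CPM (E16.5). Vessel cells stood at 0.261 to 2.64 CPM and cardiomyocytes at 0.657 to 3.60 CPM, where erythroid cells held 0 to 0.877 and free RNA 3.02 to 4.27 CPM.

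Jag1, a Jagged ligand, was in E12.5 hearts highest in atrial cardiomyocytes among the classes taken as a whole, at 30.3 and 31.2 CPM, and it stood at 24.2 and 24.1 (E14.5), 14.1 and 14.7 (E16.5), and 7.44 (P3). Ventricular cells held 6.20 and 7.44 CPM, then 2.90 and 3.13, then 1.82 and 1.52, with 1.24 CPM (P3). Atrial values exceeded ventricular ones in every library, and within each class no stage overlapped another. In endocardium-like cells Jag1 was at 11.2 and 13.5, 15.97 and 15.7, and 18.7 and 23.0 CPM, with 41.3 (P3). In vessel cells the libraries of a stage differed more, at 14.9 and 5.12 (14 and 5 UMIs), 8.08 and 11.9, and 27.7 and 20.1 CPM, with 15.2 (P3). Mural-like cells held the highest level of the 6 classes at E16.5, 31.6 and 27.9 CPM, and 58.5 (P3), and mesenchyme-like cells held 8.36 to 12.4 CPM in these hearts and 20.2 (P3). At E16.5 the vessel and endocardial ranges overlapped.

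Dll4, the Delta-like ligand of arterial and sprouting endothelium, was mainly found in the endothelial classes. Vessel cells stood at 35.0 and 27.6 CPM (E12.5), 49.8 and 45.7 (E14.5), 64.5 and 55.4 (E16.5), and 50.7 (P3). Endocardium-like cells stood at 13.7 in both E12.5 libraries, 15.3 and 13.5 (E14.5), 19.5 and 22.4 (E16.5), and 15.2 (P3). The vessel cells were above the endocardium-like cells in all libraries. Mural-like cells held 13 and 1 Dll4 UMIs at E16.5 (6.97 and 0.899 CPM), and mesenchyme-like cells were at 0.0972 to 1.09 CPM. Cardiomyocytes held 0 to 0.447 CPM, within the 0 to 0.413 CPM of erythroid cells apart from 1 atrial sum of 2 UMIs. Ventricular sums were above the erythroid sum of their own library in 5 of 6 libraries and atrial sums in 2 of 6, and Dll4 was not read as expressed in muscle at this depth.

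Hey1, a Hey repressor, was an atrial gene among the muscle classes and a vessel gene among the endothelial ones. Atrial cells held 18.4 and 23.4 CPM (E12.5), 14.3 and 14.2 (E14.5), 5.92 and 6.26 (E16.5), and 6.32 (P3), while ventricular cells held 0.613 to 1.83 CPM. Vessel cells held 20.2 and 12.3 CPM at E12.5 (19 and 12 UMIs), 51.1 and 41.5 (E14.5), 64.0 and 64.6 (E16.5), and 55.3 (P3). In endocardium-like cells Hey1 was at 17.3 and 17.4, 11.6 and 14.3, and 22.3 and 27.5 CPM, with 36.1 (P3). The endothelial classes thus overlapped at E12.5 and were apart at E14.5 and E16.5. Mesenchyme-like cells moved from 9.04 and 9.85 CPM (E12.5) to 23.9 and 27.6 and then 22.6 in both E16.5 libraries, and mural-like cells held 23.6 and 23.4 CPM (E16.5).

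Hey2, the Hey repressor of the ventricular wall, was at 58.7 and 70.8 CPM in ventricular cells at E12.5, 82.8 and 83.4 (E14.5), 85.7 and 82.5 (E16.5), and 28.4 in the P3 matrix. Atrial cells held 1.99 and 2.87, 6.82 and 1.53, and 3.61 and 2.68 CPM, with 1.65 (P3). The lowest ventricular sum was several times the highest atrial one, and the P3 ventricular value lay below every embryonic ventricular value. With each cell thinned to 2000 UMIs, 8.91% to 15.1% of ventricular cells held a Hey2 UMI, against 0.223% to 0.726% of atrial and 0% to 0.533% of erythroid cells. Unthinned, these shares were 50.7% to 69.8%, 1.77% to 4.23% and 0% to 4.23%, at median depths of 11431 to 21701, 9488 to 19100 and 11697 to 30628 UMIs. Mural-like cells held the second highest level at E16.5, 41.8 and 39.5 CPM. Mesenchyme-like cells held 23.2 and 23.0 CPM (E12.5), 16.7 and 16.503 (E14.5) and 15.2 and 10.0 (E16.5), and endocardium-like cells 15.4 and 17.1, 22.1 and 20.8, and 10.1 and 13.1 CPM. Vessel cells held 0 to 10.55 CPM from at most 32 UMIs. Free RNA held Hey2 at 20.2 and 28.4 CPM (E12.5), 39.8 and 40.4 (E14.5) and 41.6 and 36.9 (E16.5), below the ventricular level in each library. The mural sums lay close to it, and the atrial, endocardial, vessel and, in 5 of 6 libraries, mesenchymal sums lay below it.

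Heyl, the Hey-like repressor found in smooth muscle, was at 157 and 172 CPM in mural-like cells at E16.5 and 136 (P3). Mesenchyme-like cells held 8.53 and 10.46 CPM (E12.5), 36.0 and 33.3 (E14.5), 37.8 and 35.1 (E16.5), and 77.3 (P3). The step in mesenchyme lay between E12.5 and E14.5. At E14.5 the class included a Lsp1-led cluster with 4 of the 8 mural markers detected, and its part in the step was not tested. In all other classes Heyl was at 4.28 CPM or below in the E12.5 to E16.5 hearts, with 0 UMIs in both E12.5 vessel sums.

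Hes1, a target of Notch and of other signals, was found in all 6 classes. Endocardium-like cells held 247 and 349, 246 and 283, and 279 and 282 CPM, vessel cells 152 and 254, 271 and 311, and 257 and 242 CPM, and mesenchyme-like cells 198 and 286, 337 and 351, and 274 and 286 CPM, in the order of the 3 heart stages. Over all stages these ranges overlapped, while at E16.5 vessel cells lay below the other two, and mural-like cells at 275 and 306 CPM overlapped endocardium and mesenchyme. Cardiomyocytes were lower, at 27.9 and 35.7, 37.0 and 34.7, and 22.2 and 23.0 CPM in ventricular cells and 9.03 and 14.501, 26.0 and 32.2, and 20.5 and 16.1 CPM in atrial cells. Both muscle classes were above erythroid cells, at 2.63 to 7.19 CPM, while free RNA held Hes1 at 44.3 to 99.2 CPM. At P3 Hes1 stood at 528 in vessel, 495 in mural-like, 393 in mesenchyme-like, 222 in endocardium-like, 35.5 in atrial and 27.2 CPM in ventricular cells, with 80.6 CPM in the erythroid cells of that matrix.

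The comparison of ventricular with atrial cardiomyocyte-like cells, averaged over E12.5, E14.5 and E16.5, showed 3 genes higher and 2 lower in ventricular cells among 9 tested, where 54.5% of all genes tested passed (28.0% higher, 26.5% lower). Hey2 was 24.9-fold higher in ventricular cells (log2 difference 4.64 ± 0.11 SE, adjusted p = 8.5e-21), with means of 77.3 ± 10.52 and 3.25 ± 1.89 CPM (SD, n = 6 sums each). Hey1 was lower (-3.26 ± 0.14, adjusted p = 7.76e-16), at 1.22 ± 0.50 against 13.7 ± 6.83 CPM. The 2 Hey genes thus took opposite sides of the chamber boundary, and neither pair of ranges overlapped. The ligand Jag1 was on the atrial side (-2.61 ± 0.09, adjusted p = 3.65e-18), at 3.84 ± 2.42 against 23.1 ± 7.36 CPM. Hes1 (0.82 ± 0.09, adjusted p = 1.97e-08) and Notch2 (0.40 ± 0.13, adjusted p = 0.0104) were higher in ventricular cells by smaller amounts, and the Notch2 call was lost with the mitochondrial ceilings of the study (0.17, adjusted p = 0.326) and without the second E12.5 library (adjusted p = 0.0543). Notch1, Notch3, Notch4 and Heyl did not pass (Notch3 0.51, adjusted p = 0.0842, and 0.68, adjusted p = 0.0431, without the second E14.5 library), and Dll4 was too low to test. The median log2 difference of the tested members was -0.04. Nppa-led clusters with 5 ventricular markers detected, described below, were counted in neither class. They held less Hey2 and more Jag1 than the ventricular class, and their part in these differences was not tested.

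**Figure D2:**
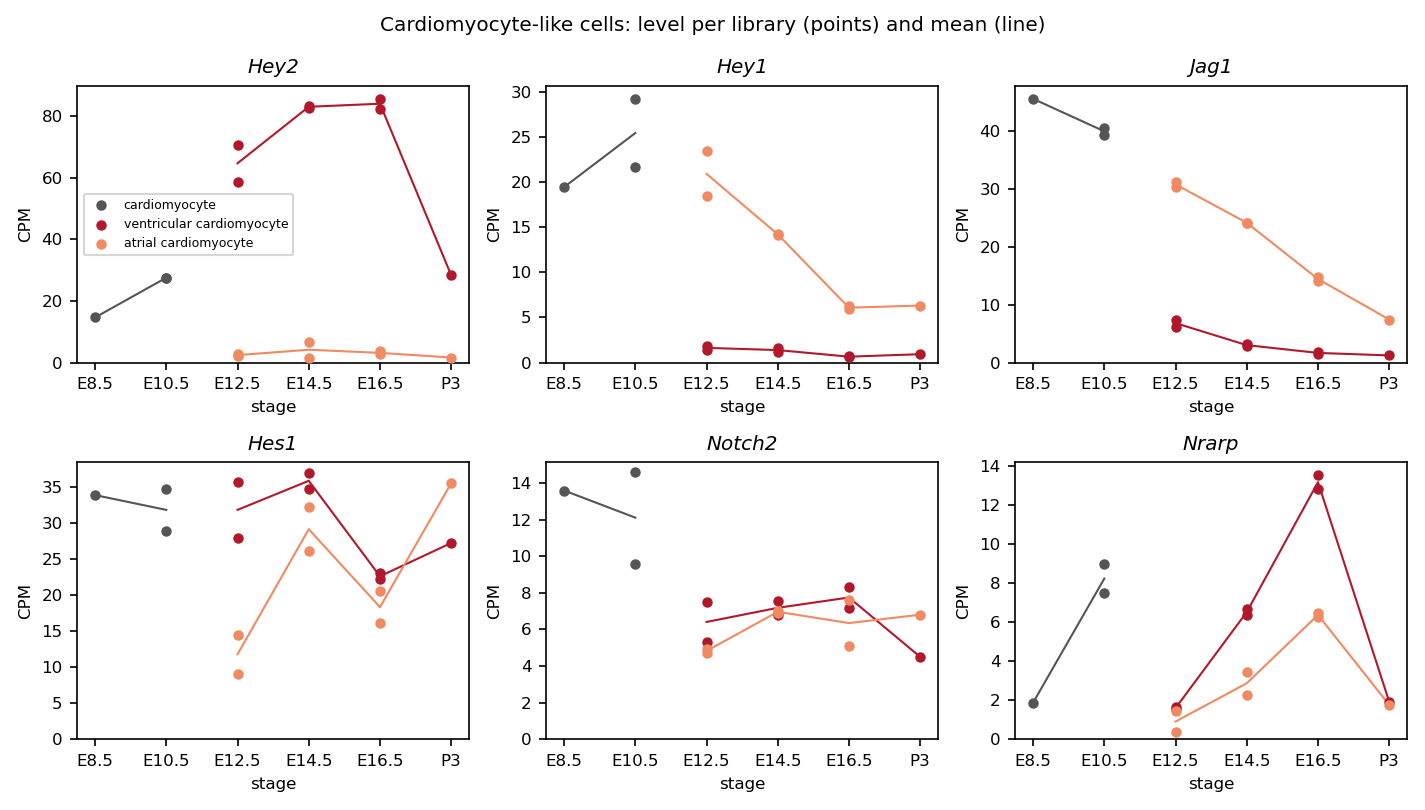
CPM of 6 genes by stage in cardiomyocytes at E8.5 and E10.5, and in ventricular and atrial cells from E12.5, each point 1 library. Hey2 is high in ventricular cells (58.7 to 85.7 CPM in the E12.5 to E16.5 hearts) and Jag1 and Hey1 are high in atrial cells and fell from E12.5 to E16.5.

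In ventricular cells, 7 of the 10 genes differed between E16.5 and E12.5, 2 higher and 5 lower, where 64.5% of the 13532 genes tested did (33.0% higher, 31.6% lower). The share was close to that background, and the median member difference was -0.41. The class did not hold the same clusters at each stage. At E12.5 a Rspo3-led cluster of 361 cells and a Cited1-led one of 720 cells, with 5 and 4 ventricular markers detected, were left unnamed. At E14.5 a Clu-led cluster of 290 cells and a Cited1-led one of 897 cells were counted as ventricular. The part of this in the stage differences was not tested. Jag1 fell by 1.85 on the log2 scale (SE 0.14, adjusted p = 1.64e-10, n = 2 libraries per stage) and Notch3 by 1.73 (SE 0.20, adjusted p = 1.58e-07). Hey1 fell by 1.18 (SE 0.25, adjusted p = 0.000253) from a low level and Hes1 by 0.34 (SE 0.08, adjusted p = 0.00125). Hey2 rose by 0.54 ± 0.08 (adjusted p = 2.67e-06) and Notch2 by 0.41 ± 0.12 (adjusted p = 0.00493). The Notch2 call was lost without the first E12.5 (adjusted p = 0.122) or the second E16.5 library (adjusted p = 0.0657). Dll4, counted among the 5 lower, reached the filter on low counts only through E12.5 (9 and 15 UMIs, against 5 and 7 at E16.5), so that its direction was fixed and nothing is read from it. It passed at adjusted p = 0.0304, and lost the call with DESeq2 (adjusted p = 0.242), with no filter on low counts (adjusted p = 0.0573), with finer clusters (adjusted p = 0.0683) and also without either E12.5 library or the first E16.5 library (adjusted p = 0.0502 to 0.263). Notch1, Notch4 and Heyl did not pass. Free RNA held Jag1 at 10.46 and 14.49 CPM (E12.5), 6.64 and 6.69 (E14.5) and 5.07 and 3.98 (E16.5), above the ventricular level in each library and falling between the same stages. It held Hey1 at 3.94 to 9.45 CPM, above the ventricular level too, while both genes were above the erythroid cells in 6 of 6 libraries. Free RNA held Hes1 at 64.1 and 99.2 CPM (E12.5), 65.0 and 72.8 (E14.5) and 44.3 and 50.6 (E16.5), also above the ventricular level in each library. The part of free RNA in the ventricular Jag1, Hey1 and Hes1 values was not tested. The summed level of 7 atrial markers in ventricular cells moved with the falling genes, from 11920 and 11034 CPM at E12.5 to 2565 and 2488 CPM at E16.5, against 37565 to 57022 CPM in atrial cells, and the atrial transcription factor Nr2f1 stood at 0.455 to 3.53 CPM there against 103 to 278 CPM in atrial cells. The share of ventricular barcodes with under 1% mitochondrial UMIs moved as well, from 33.4% and 32.5% to 7.76% and 5.54%. Without those barcodes the count of called members stayed at 7, with Hey2 at 0.49, and the part of the atrial markers was not tested.

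In atrial cells 3 of 7 tested genes differed between the same stages, where 28.4% of all tested genes did (15.3% higher, 13.1% lower). Hey1 fell by 1.65 (SE 0.20, adjusted p = 2.79e-08) and Jag1 by 0.96 (SE 0.14, adjusted p = 2.9e-06), while Hes1 rose by 0.78 ± 0.19 (adjusted p = 0.00184). The E12.5 and E16.5 ranges did not overlap for any of the 3. At E12.5 the class included the Myl1-led cluster of 232 cells at 0.521% mitochondrial UMIs, and at E16.5 it was 1 cluster at 7.78%. Barcodes with under 1% mitochondrial UMIs made up 27.6% and 32.2% of atrial cells at E12.5 and 26.9% and 21.0% at E16.5, and without them Hey1 (-1.64), Jag1 (-0.95) and Hes1 (0.80) passed in the same directions. The free RNA level of Jag1 fell between these stages as given above. Free RNA held Hey1 at 3.94 and 8.92 CPM (E12.5) and at 5.75 and 7.07 (E16.5), so that atrial Hey1 was above it at E12.5 and close to it at E16.5. For Hes1 free RNA lay above the atrial level in each library. The part of free RNA in the atrial Jag1, Hey1 and Hes1 values was not tested. Notch1, Notch2, Notch3 and Hey2 (0.53, adjusted p = 0.404) did not pass, and Notch4, Dll4 and Heyl were too low to test. The Hes1 call was lost with DESeq2 (adjusted p = 0.0806), without the first E12.5 (adjusted p = 0.0681) and without the first E16.5 library (adjusted p = 0.108). When the stage changes of the chambers were compared directly, 0 of 9 tested members changed more upward and 2 more downward in ventricular cells, with 14.3% of all genes passing (7.09% higher, 7.20% lower). These were Jag1 (-0.91, adjusted p = 0.00224) and Hes1 (-1.13, adjusted p = 0.00106). Without the first E16.5 library the Hes1 difference did not pass (adjusted p = 0.06).

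Some cardiomyocyte-like clusters differed within a stage, given as values because clusters were defined on the same cells. At E12.5 Hey2 stood at 63.8 and 76.5 CPM in the Tnnt1-led and at 25.6 and 30.9 CPM in the Tnni2-led ventricular cluster. At E14.5 it was at 103 and 101 CPM in the Gja1-led cluster against 22.6 and 28.9 in the Cited1-led cluster, and at E16.5 at 107 and 102 in the Cox8b-led cluster against 32.0 and 31.2 in the Hbb-y-led cluster. High and low Hey2 clusters were thus found at each stage. The Tnni2-led, Cited1-led and Hbb-y-led clusters had median depths of 5065, 4516 and 4014 UMIs and 0.327%, 0.412% and 0.944% mitochondrial UMIs, against 14537 to 25902 UMIs and 6.61% to 12.9% in the clusters they are set beside. The part of depth and RNA quality in these Hey2 levels was not tested. A Clu-led E14.5 cluster, picked after its values were seen, had 8.14% mitochondrial UMIs and held Hey2 at 33.9 and 27.4 CPM. Clusters with Nppa, a natriuretic peptide gene of atrium and trabeculae, as the first or (at E16.5, after Gtsf1) the second of their leading genes were left without a chamber name. At each of these stages they had 5 ventricular and 2 atrial markers detected. Myl2 stood there at 14597 to 18704 CPM and Nr2f1 at 0.590 to 8.42 CPM, while the atrial markers summed to 10474 to 25788 CPM. They held Hey2 at 17.6 and 16.3, 34.2 and 27.9, and 35.0 and 35.4 CPM, and Jag1 at 14.02 and 14.54, 7.87 and 9.30, and 2.99 and 2.95 CPM, between the chamber classes for both genes. Within atrial cells at E12.5, Jag1 was at 33.2 and 34.9 CPM in the Nr2f1-led and at 5.28 and 5.15 CPM in the Myl1-led cluster. The Myl1-led cluster had a median of 4188 UMIs and 0.521% mitochondrial UMIs, against 22400 UMIs and 7.63% in the Nr2f1-led one, and the part of this in the Jag1 levels was not tested.

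Vessel endothelium-like cells were compared with endocardium-like cells over the same 6 libraries. Among 10 tested genes, 3 were higher and 4 lower in vessel cells, where 57.3% of all tested genes passed (28.3% higher, 29.0% lower). On the vessel side stood Dll4 with a log2 difference of 1.64 ± 0.11 (adjusted p = 4.19e-11, means 46.3 ± 13.4 and 16.4 ± 3.72 CPM, SD, n = 6 sums each), Notch4 with 1.25 ± 0.11 (adjusted p = 4.3e-09) and Hey1 with 1.21 ± 0.13 (adjusted p = 1.54e-07). Notch1 was lower in vessel cells (-0.71 ± 0.07, adjusted p = 3.49e-08), at 81.5 ± 19.9 against 149 ± 32.9 CPM. Notch2 (-2.16 ± 0.33, adjusted p = 1.09e-05) and Notch3 (-1.89 ± 0.37, adjusted p = 0.000194) were lower in vessel cells too. Both (1 to 10 UMIs per vessel sum) reached the filter on low counts through endocardium, so that their direction was fixed. Nothing is read from their part in the count. Hey2 also passed as lower in vessel cells (fitted -2.48 ± 0.36, adjusted p = 7.11e-06). Its E12.5 vessel sums were at 1.06 and 0 CPM, so that its size is not read. Over the 17 alternatives the fitted value was -4.07 to -1.51. The E16.5 ranges of Hey2 overlapped, at 6.05 and 10.55 CPM in vessel and 10.1 and 13.1 in endocardium-like cells. At E12.5 and E14.5 endocardial Hey2 was concentrated in the clusters with Wnt4 among their leading genes. Hes1 (-0.03 ± 0.10, adjusted p = 0.816), Jag1 (-0.09, adjusted p = 0.662) and Heyl (-2.05 ± 1.12, adjusted p = 0.125) did not pass. The median of the 10 members was -0.40. Without the endocardium-like clusters with Wnt4 among their leading genes, described below, Jag1 was higher in vessel cells (0.49 ± 0.19, adjusted p = 0.0324).

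**Figure D3:**
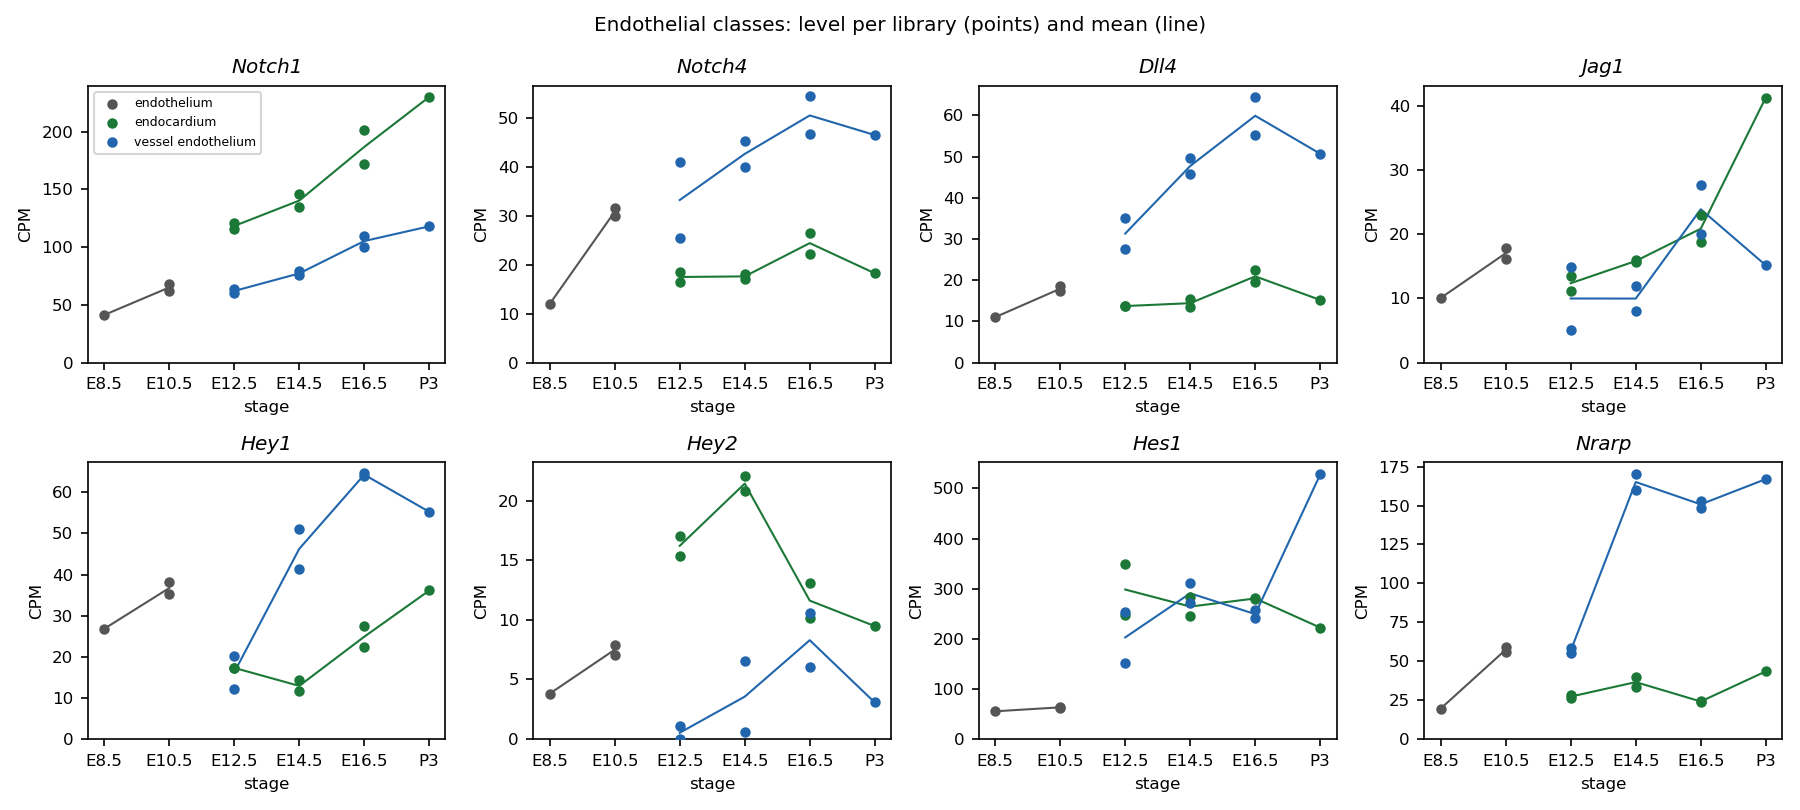
CPM of 8 genes by stage in endothelium at E8.5 and E10.5, and in endocardium and vessel endothelium from E12.5, each point 1 library. Notch1 is higher in endocardium in each library, Dll4 and Notch4 are higher in vessel cells, and Hey1 and Nrarp separate the classes from E14.5 and E12.5 on.

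In endocardium-like cells 5 of 10 genes differed between E16.5 and E12.5, 3 higher and 2 lower, where 46.2% of all tested genes did (22.2% higher, 24.0% lower). The receptor Notch1 rose by 0.48 ± 0.10 (adjusted p = 0.000425, n = 2 libraries per stage) and the ligands Jag1 by 0.56 ± 0.16 (adjusted p = 0.0062) and Dll4 by 0.42 ± 0.15 (adjusted p = 0.0237). Notch3 fell by 1.85 (SE 0.34, adjusted p = 0.00013), to 11 and 5 UMIs at E16.5, and Hey2 by 0.68 (SE 0.17, adjusted p = 0.00255). The median of the members was 0.09. Jag1 lost its call with DESeq2 (adjusted p = 0.116) and without the second E16.5 library (adjusted p = 0.114), Dll4 with DESeq2 (adjusted p = 0.281), with no filter on low counts (adjusted p = 0.068) and without either E16.5 library (adjusted p = 0.0598 and 0.193), and Hey2 without the first E16.5 library (adjusted p = 0.0889). Notch2, Notch4, Hey1, Heyl and Hes1 did not pass, but Hes1 did without the first E12.5 library (-0.49, adjusted p = 0.000474) and Heyl without the first E16.5 library (-1.86, adjusted p = 0.045).

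Endocardium-like cells were not uniform. Clusters with Wnt4, a Wnt ligand gene, as the first (E14.5) or, after Stmn2, the second (E12.5) of their leading genes, called Wnt4-led here, held 179 and 174 cells at E12.5 and 32 and 31 at E14.5. Hey2 was at 61.9 and 82.4 CPM in these at E12.5 and 176 and 113 at E14.5, against 4.20 and 4.39 and then 9.59 and 11.7 CPM in the other endocardium-like cells. Jag1 was at 42.0 and 57.3 and then 56.0 and 51.1 CPM, against 3.83 and 5.06 and then 12.7 and 12.2 CPM. Both genes were thus concentrated in the Wnt4-led cells, in both libraries of both stages. Notch1 was also higher there, at 146 and 160.4 CPM against 109 and 113 at E12.5. The ligand Dll4 was lower at E12.5, at 7.66 and 4.72 CPM against 15.2 and 15.5. Hes1 was lower at E12.5, at 146 and 180.2 CPM against 272 and 382, but at E14.5 it stood at 209 and 307 against 249 and 281 CPM, with replicate 2 going the other way. At E16.5 and P3 no separate Wnt4-led cluster was found, and Wnt4 itself stood at 58.0 and 93.4 CPM over all endocardium-like cells at E16.5 against 116 and 123 at E12.5. With the Wnt4-led clusters left out where they could be separated, the stage difference of Hey2 turned to 1.19 ± 0.22 (adjusted p = 0.000105), that of Jag1 became 1.98 ± 0.19 (adjusted p = 9.63e-09), Dll4 no longer passed (0.21, adjusted p = 0.236), and Hes1 passed at -0.45 (adjusted p = 0.00245). The direction of Hey2 across stages in endocardium therefore depended on which cells were counted, and a cell type's makeup and its level per cell cannot be told apart here. Other endocardial markers moved between the stages too, with Hapln1 at 166 and 159 CPM at E12.5 and 32.6 and 35.5 at E16.5, and Klf2 at 451 and 373 and then 666 and 782 CPM.

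In vessel cells 6 of 8 tested genes passed between E16.5 and E12.5, where 30.9% of the 10063 genes tested passed (1450 genes higher, 1657 lower). For 2 of the 6, Hey2 and Heyl, the direction was fixed beforehand, since with 1 and 0 and with 0 and 0 UMIs at E12.5 they entered the test only through the later stages, and nothing is read from their part in the count. Hey1 rose by 1.84 ± 0.25 (adjusted p = 5.7e-05, n = 2 libraries per stage), Dll4 by 0.80 ± 0.20 (adjusted p = 0.00794) and Notch1 by 0.62 ± 0.15 (adjusted p = 0.00605). Jag1 rose by 1.14 ± 0.40 (adjusted p = 0.0412) on 14 and 5 UMIs at E12.5. Hey2 (adjusted p = 0.0467) and Heyl (adjusted p = 0.0124) have no fold here, and stood at 6.05 and 10.55 and at 4.28 and 3.63 CPM at E16.5. Notch4 (0.45, adjusted p = 0.142) and Hes1 (0.15, adjusted p = 0.562) did not pass, and Notch2 and Notch3 were too low to test. The E12.5 sums came from 22 and 27 cells, against 189 and 179 at E16.5, and without the first E16.5 library only Hey1 of the 6 kept its call (the other 5 at adjusted p = 0.0566 to 0.202). Without the second E12.5 library Jag1 (adjusted p = 0.379), Dll4 (adjusted p = 0.0792), Hey2 and Heyl lost theirs, while Notch4 (0.84, adjusted p = 0.04) and Hes1 (0.58, adjusted p = 0.0174) passed. Heyl lost its call without the first E12.5 library too (adjusted p = 0.0759), and Hey2 without any 1 of the 4 libraries. Jag1 also lost its call with DESeq2 (adjusted p = 0.145), a minimum of 5000 UMIs (adjusted p = 0.0891) and finer clusters (adjusted p = 0.0846), and Hey2 with DESeq2 (adjusted p = 0.103), the 5000 UMI minimum (adjusted p = 0.0503) and predicted doublets left out (adjusted p = 0.0799). The summed level of 5 ventricular markers in vessel cells moved in the same direction, from 432 and 972 to 1893 and 2818 CPM, against 23776 to 35793 CPM in ventricular cells, where Hey2 is high, and its part in the vessel Hey2 values was not tested. The stage changes of vessel and endocardium differed for 2 of 10 members, where 6.91% of all genes did (3.70% higher, 3.21% lower), namely Hey1 (1.46, adjusted p = 0.00368) and Hey2 (adjusted p = 0.0328), the latter on 1 and 0 vessel UMIs at E12.5, so that its size is not read. The Hey1 difference did not pass without the second E12.5 library (adjusted p = 0.0888), and the Hey2 difference did not pass without the Wnt4-led clusters (adjusted p = 0.376), without either E12.5 library (adjusted p = 0.101 and 0.25) or without the second E16.5 library (adjusted p = 0.0691).

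**Figure D4:**
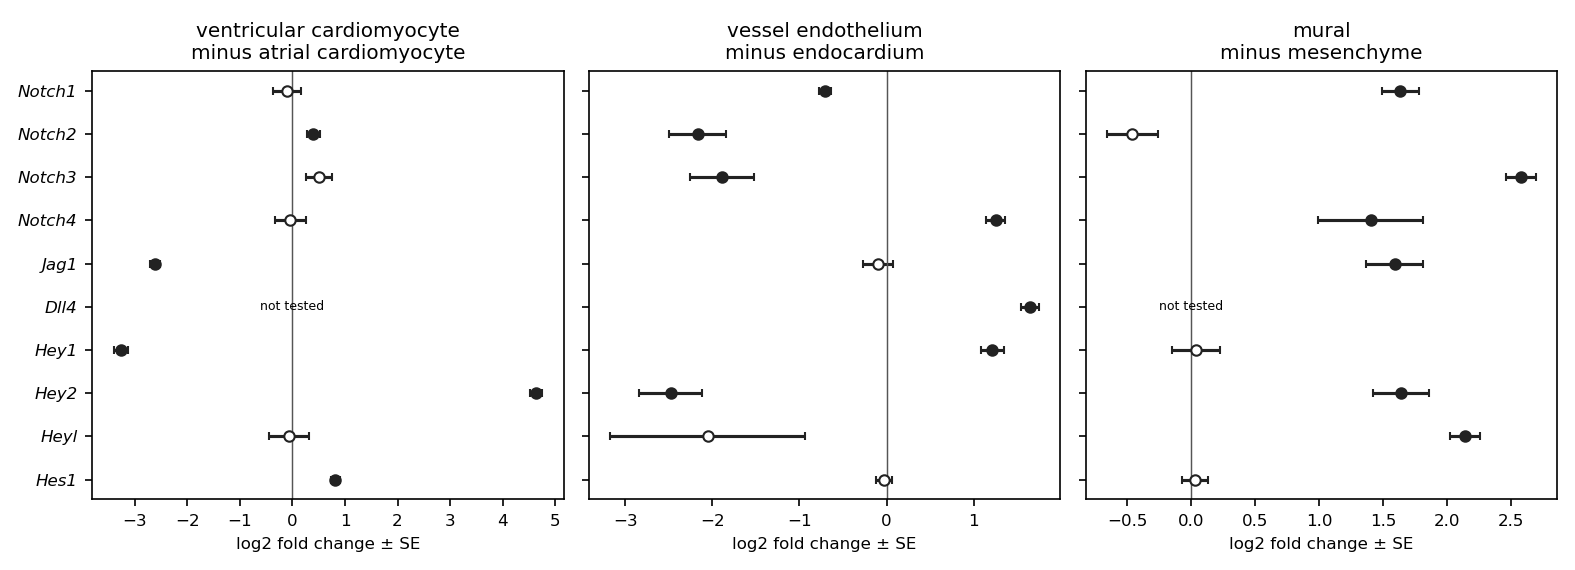
Fitted log2 difference ± SE of each gene in ventricular minus atrial, vessel minus endocardium (both averaged over E12.5 to E16.5) and mural minus mesenchyme (E16.5). Filled points passed an adjusted p of 0.05, open points did not, and Dll4 was not tested in the chamber and mural comparisons. Hey2 reaches 4.64 and Hey1 -3.26 in the chambers, and Notch3 2.58 and Heyl 2.14 in mural cells.

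Mural-like cells were compared with mesenchyme-like cells at E16.5, the only stage with mural sums in 2 libraries. Of 9 tested genes, 6 differed, all of them higher in mural cells, where 21.6% of the 10987 genes tested passed (1158 genes higher, 1216 lower), with a member median of 1.59. Notch3 was higher by 2.58 ± 0.12 (adjusted p = 2.55e-11), at 224 ± 17.7 against 36.8 ± 0.70 CPM (SD, n = 2 sums each), and Heyl by 2.14 ± 0.12 (adjusted p = 3.55e-10), at 164 ± 10.6 against 36.5 ± 1.90 CPM. Higher in mural cells too were Notch1 (1.64 ± 0.14, adjusted p = 1.26e-07), Hey2 (1.64 ± 0.22, adjusted p = 1.87e-05), the ligand Jag1 (1.59 ± 0.22, adjusted p = 3.06e-05) and Notch4 (1.40 ± 0.41, adjusted p = 0.0193). Notch2 (-0.46, adjusted p = 0.121), Hey1 (0.04) and Hes1 (0.03) did not pass, and Dll4, too low to test, held 13 and 1 UMIs. Notch4 lost its call with DESeq2 (adjusted p = 0.274). Free RNA held Notch4 at 2.37 and 4.42 CPM at E16.5, close to the 2.53 to 3.04 CPM of mesenchyme-like cells. Against the Cthrc1-led E16.5 cluster alone, Notch4 did not pass either (adjusted p = 0.0703), while Hes1 (-0.62 ± 0.12, adjusted p = 0.000502) and Notch2 (-0.68, adjusted p = 0.0268) were lower in mural cells, and Notch3 (3.796), Heyl (2.11), Notch1 (0.84), Hey2 (1.80) and Jag1 (2.01) passed as before. The summed level of 8 endothelial markers moved with the comparison. It was at 152 and 160.0 CPM in mural cells (7 of 8 above 0) against 33.0 and 35.9 in mesenchyme-like cells and 2938 and 2775 CPM in vessel cells. By the naming rule only 1 of the 8 counted as detected in the mural cluster. The endothelial genes Pecam1 and Cdh5 stood in mural cells at 2.70 to 4.83 and 0 to 5.36 CPM. The vessel gene Fabp4 stood there at 108 and 105 CPM, against 27.0 and 22.6 in mesenchyme-like and 6336 and 5059 CPM in vessel cells. The 8 vessel markers summed to 117 and 114 CPM in mural and 40.2 and 29.8 CPM in mesenchyme-like cells. The part of endothelial RNA in the Notch1 and Notch4 differences was not tested.

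**Figure D5:**
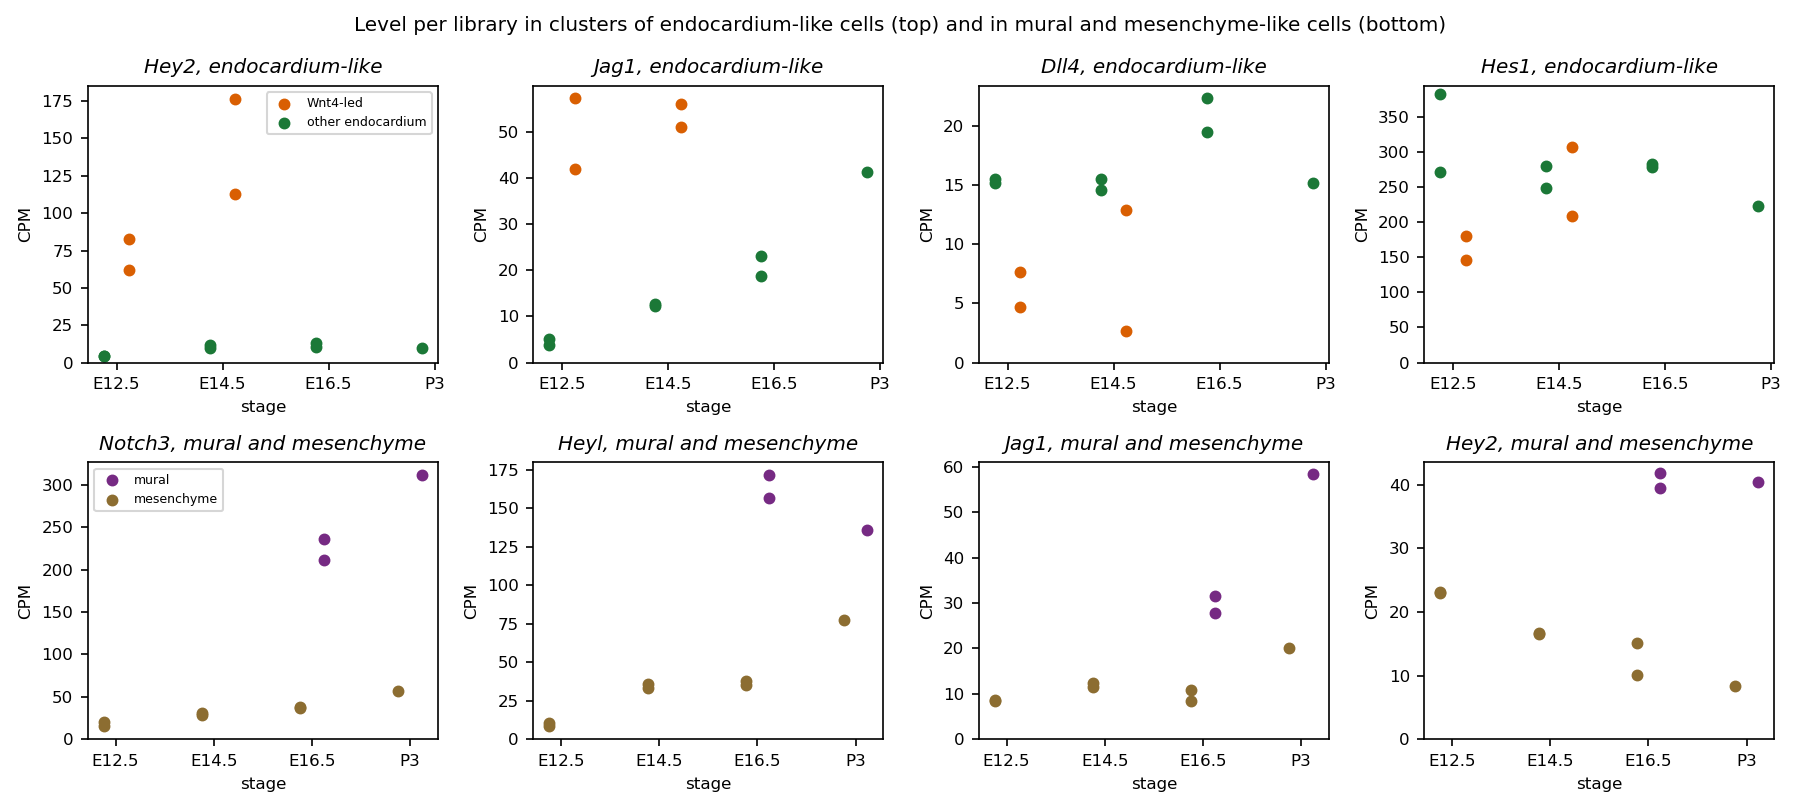
Top, CPM of Hey2, Jag1, Dll4 and Hes1 in the Wnt4-led and the other endocardium-like cells by stage. Bottom, CPM of Notch3, Heyl, Jag1 and Hey2 in mural and mesenchyme-like cells by stage, each point 1 library. Hey2 reaches 176 CPM in Wnt4-led cells against at most 13.1 CPM in the other endocardium-like cells, and Notch3 lies at 211 to 312 CPM in mural cells.

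In mesenchyme-like cells 4 of 9 tested genes were higher and 2 lower at E16.5 than at E12.5, where 48.7% of all tested genes passed (25.8% higher, 23.0% lower), with a member median of 0.36. The stages held different clusters. Both E12.5 clusters had Cthrc1 and Postn among their leading genes, while the E16.5 class was made of a Ptn-led cluster of 953 cells and a Cthrc1-led one of 270 cells. Over the whole class Heyl rose by 2.09 ± 0.13 (adjusted p = 1.53e-10), Hey1 by 1.41 ± 0.13 (adjusted p = 5.07e-08) and Notch3 by 1.22 ± 0.13 (adjusted p = 2.71e-07). Hey2 fell by 0.66 (SE 0.15, adjusted p = 0.00131) and Notch4 by 0.73 (SE 0.26, adjusted p = 0.0268), a call lost with DESeq2 (adjusted p = 0.215) and without either E12.5 library or the first E16.5 library (adjusted p = 0.053 to 0.181). Free RNA held Notch4 at 2.92 and 4.09 CPM (E12.5) and 2.37 and 4.42 (E16.5), and the part of free RNA in the mesenchymal Notch4 values was not tested. With only the clusters that have Cthrc1 among their leading genes, Heyl (2.104 ± 0.19, adjusted p = 3.47e-08), Hey1 (1.54 ± 0.22, adjusted p = 1.69e-05) and Hey2 (-0.86 ± 0.22, adjusted p = 0.00509) passed in the same directions. Notch3 did not pass there (-0.03 ± 0.23, adjusted p = 0.953), nor did Notch4 (-0.57, adjusted p = 0.372), while Notch1 (0.93 ± 0.14, adjusted p = 4.07e-05) and Hes1 (0.99 ± 0.12, adjusted p = 3.11e-06) passed. The Notch3 call thus depended on which clusters were counted. Over the whole class Hes1 passed at 0.36 ± 0.12 (adjusted p = 0.0156) although its stages overlapped, and it did not pass with DESeq2 (adjusted p = 0.229) or without the first E12.5 library (adjusted p = 0.326). Over the whole class Notch1 and Notch2 did not pass and Dll4 was too low to test. Jag1 did not pass (0.39, adjusted p = 0.068) but did without the second E16.5 library (0.55, adjusted p = 0.0232), and with finer clusters it was lower at E16.5 (-0.45, adjusted p = 0.025), when 140 and 187 E12.5 cells of an Eln-led cluster, at 44.5 and 64.4 CPM of Jag1, were counted as mesenchyme. The 8 mural markers summed to 45.7 and 44.4 CPM in mesenchyme-like cells at E12.5 and 249 and 257 at E16.5, against 3936 and 3818 CPM in mural cells, with the smooth muscle gene Myh11 at 0 to 0.583 CPM in mesenchyme-like cells. The part of mural RNA in the Notch3 and Heyl values was not tested.

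Mesenchyme-like clusters also differed from one another. At E14.5 the Lsp1-led cluster held Notch3 at 42.7 and 46.0 and Heyl at 48.2 and 51.4 CPM, against 16.7 and 19.6 and then 26.7 and 20.8 CPM in the Postn-led cluster, while Hes1 was at 297 and 314 against 367 and 376 CPM. The Lsp1-led cluster of 544 cells had 4 of the 8 mural markers detected beside 8 mesenchyme markers, and the Postn-led cluster had 0 mural markers. The part of mural-like cells in its Notch3 and Heyl levels was not tested. At E16.5 the Ptn-led cluster held more Notch3 than the Cthrc1-led one (41.2 and 42.1 against 19.0 and 15.5 CPM) but less Hes1 (228 and 235 against 493 and 475 CPM) and less Notch1 (21.3 and 21.7 against 50.8 and 55.6 CPM). In both pairs the cluster with more Notch3 held less Hes1, and Hes1 stood above 200 CPM in all 4. Among P3 mural cells clustered more finely, the Tagln-led cluster of 108 cells, led by a smooth muscle gene, held Jag1 at 127 and Hey2 at 98.0 CPM, against 39.2 and 23.7 CPM in the Rgs5-led cluster of 352 cells. Notch3 (383 and 292 CPM) and Heyl (149 and 132 CPM) were closer to each other in the same pair of clusters.

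At the 2 earliest stages the genes were followed in lineages without a test, since E8.5 had 1 library and E10.5 came from embryos rather than hearts. In cardiomyocytes Jag1 was at 45.6 CPM at E8.5 and 40.6 and 39.3 at E10.5, Hey1 at 19.5 and then 29.2 and 21.7, and Hey2 at 14.7 and then 27.6 in both libraries. Free RNA held Jag1 at 17.7 CPM at E8.5 and 56.3 and 54.3 at E10.5, above the cardiomyocytes at E10.5, Hey1 at 8.24 and then 12.6 and 14.3, and Hey2 at 2.40 and then 3.78 and 3.79 CPM. Erythroid cells held Jag1 at 0.722 to 2.72, Hey1 at 1.21 to 3.28 and Hey2 at 0 to 0.468 CPM at these stages. In endothelium Notch1 was at 41.3 CPM and then 68.1 and 62.1, Notch4 at 11.98 and then 31.7 and 29.995, Dll4 at 11.03 and then 18.5 and 17.4, and Hey1 at 26.8 and then 35.3 and 38.2 CPM. Hes1 was at 55.4 CPM and then 64.3 and 62.4 in endothelium and at 65.5 and then 67.1 and 66.2 in mesenchyme, below every endocardial and mesenchymal heart value from E12.5 on. In mesenchyme, which at these stages is not cardiac alone, Notch2 was at 33.5 CPM and then 37.2 and 29.2, Notch3 at 8.93 and then 15.4 and 14.6, and Heyl at 2.17 and then 9.92 and 10.9 CPM. Free RNA held Notch2 at 46.7 CPM and then 117 and 139, above the mesenchyme in each library. It held Notch3 at 7.90 and then 16.1 and 13.1, and Hes1 at 52.9 and then 60.8 and 56.3 CPM. The part of free RNA in these levels was not tested. A mesenchyme cluster of 1172 and 520 cells at E10.5 had Notch2 among its leading genes. Rpgrip1, Supt16, Slc39a1 and Slc24a5 were leading genes of both this cluster and a neural cluster of 1158 and 606 cells. At resolution 1.6 a cluster of 1678 cells with the same leading genes was left unnamed, and a neural cluster of 580 cells had Notch2 among its leading genes too. Nothing about mesenchyme is therefore read from this cluster.

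The P3 matrix pooled the 2 P3 records of the labels. Its 2 sets of barcodes, called wells here although the labels do not use that word, stood apart for several genes. The paper also reports batch differences at P3, from a visual check. Heyl was at 33.3 CPM in well 1 and 108 in well 2 in mesenchyme-like cells and at 84.9 and 201 in mural-like cells. Jag1 was at 5.45 and 30.4 CPM in mesenchyme-like cells, at 27.7 and 71.8 in endocardium-like, at 43.5 and 77.9 in mural-like, at 10.2 and 20.4 in vessel and at 4.99 and 11.97 in atrial cells. Atrial Hey1 was at 3.03 and 12.4 CPM, on either side of the E16.5 values, and atrial Hes1 at 25.5 and 53.9 CPM. Dll4 was at 10.1 and 26.7 CPM in endocardium-like and at 39.2 and 62.9 in vessel cells, and endocardial Notch4 at 14.49 and 26.7 CPM. Hey2 in ventricular cells was at 22.5 and 44.4 CPM, so the P3 value lay below the embryonic values in both wells. Notch1 in endocardium-like cells (231 and 228 CPM) and Notch3 in mural-like cells (337 and 279 CPM) differed less. P3 levels, from 1 matrix used as 1 library, were given without a test, and differences from the embryonic hearts cannot be told apart from differences in preparation.

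Across the 32 class and library sums of the E12.5 to E16.5 hearts, the genes with the most similar patterns were listed among 7431 genes with a mean of at least 10 CPM, as a description over sums that share libraries. Notch1 was closest to Tm4sf1 (Pearson r = 0.99) and Eng (0.98), Notch4 to Hhex (0.98), and Dll4 to Gimap4 and Bcl6b (0.98 each). Notch3 was closest to Rasl11a (0.96) and Cd248 (0.94), and Heyl to Cygb (0.94) and Aspn (0.93). The muscle-divided genes had looser neighbours, with Jag1 closest to Nr2f2 (0.86), an atrial marker used for naming, Hey1 to Tmem159 (0.90) and Hey2 to Sept6 (0.83). Notch2 was closest to Fam110b (0.96) and Hes1 to Ltbr (0.98) and Vim (0.97). Among the 10 genes themselves, Notch4 and Dll4 (0.96), Notch3 and Heyl (0.93) and Notch1 and Hes1 (0.93) were most alike, while Hey1 and Hey2 (-0.58) ran opposite.

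Of the 40 other pathway genes, 13 were higher and 8 lower among 35 tested in ventricular cells across stages, where 33.0% and 31.6% of all genes tested were. The counts were 3 and 1 among 29 in atrial cells (15.3% and 13.1% of all genes), 10 and 7 among 33 in endocardium-like cells (22.2% and 24.0%), 3 and 4 among 30 in vessel cells (1450 and 1657 of 10063 genes), and 15 and 4 among 34 in mesenchyme-like cells (25.8% and 23.0%). Between classes, 8 were higher and 12 lower among 37 in ventricular against atrial cells (28.0% and 26.5%), 5 and 18 among 36 in vessel against endocardium-like cells (28.3% and 29.0%), and 5 and 1 among 32 in mural against mesenchyme-like cells (1158 and 1216 of 10987 genes). Nrarp, a Notch target that feeds back on the receptor's intracellular part, was among the 3 with the greatest differences in 4 of these 8 comparisons. It rose in ventricular cells (3.22 ± 0.12, adjusted p = 8.37e-16), from 1.63 and 1.55 to 13.5 and 12.8 CPM, and in vessel cells (1.26 ± 0.14, adjusted p = 1.31e-05), from 55.2 and 58.3 to 153 and 148 CPM. In atrial cells it held 2 and 9 UMIs at E12.5 (0.36 and 1.43 CPM) and 38 and 29 at E16.5 (6.24 and 6.48 CPM), and it entered that test only through the later stage, so no fold is given. Nrarp thus rose in ventricular cells, in which Jag1 and Hey1 fell. In mural cells it was at 154 and 173 CPM against 4.08 and 6.38 in mesenchyme-like cells (4.99 ± 0.16, adjusted p = 5.52e-13), and its difference from the Cthrc1-led E16.5 cluster alone was 3.78 ± 0.19 (adjusted p = 4.64e-12). The glycosyltransferase gene Lfng, whose product modifies Notch receptors, held 0 and 2 UMIs in mesenchyme-like cells at E12.5 and 6.90 and 7.90 CPM at E16.5, and in vessel cells 1 and 1 UMIs and then 9.82 and 18.5 CPM. It entered both tests only through the later stages, so that its direction was fixed, and its levels are given as a description. Over the clusters with Cthrc1 among their leading genes Lfng was not among the genes tested. Dlk1, a non-canonical ligand, rose in mesenchyme-like cells (5.42 ± 0.15, adjusted p = 1.67e-15), from 23.1 and 24.7 to 869 and 980 CPM. It is a leading gene of the Ptn-led E16.5 cluster, and over the clusters with Cthrc1 among their leading genes its difference was 1.93 ± 0.15 (adjusted p = 1.75e-09). Dlk1 was lower in vessel than in endocardium-like cells (-3.91 ± 0.18). The ligand Jag2 held 3 to 37 UMIs per vessel sum and 1 to 7 per endocardial sum, and entered that test only through the vessel cells.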

How the data were processed

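Raw UMI counts per gene and barcode were deposited by the authors in 10 matrices, made with Cell Ranger (3.1.0 in the embryonic headers, 3.0.0 for P3) on mm10, while the submitters' processing notes list Cell Ranger 2.1.1 and Seurat 3.1.1. The embryonic matrices list 737280 barcodes each and the P3 matrix 10964. Totals were 67141166 to 259041468 UMIs per matrix. Groups follow the labels. The records pooled in 1 E16.5 and in the P3 matrix were each used as 1 library. The first E8.5 library was not analysed here. The members, lists and tests were chosen with earlier results of these data known.

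Barcodes with at least 2000 UMIs were kept, without the ceilings on mitochondrial UMIs that the study applied. Each stage was clustered on Pearson residuals (theta 100, 3000 variable genes), leaving out the 10 members and 40 pathway genes. Components (30) and neighbours (20) came from scikit-learn 1.9.0, and a shared-neighbour graph was split with leidenalg 0.10.2 (Leiden resolution 0.8). A cluster needed at least 3 detected markers for a name, a rule set with the clusters seen. Some clusters with more markers were left unnamed for low UMIs or for leading genes of another class. Others kept a lineage name with no subtype assigned. Scrublet was run in scanpy 1.11.5. Its own threshold marked few cells, so the number of doublets expected at 0.8% per 1000 cells was marked instead. These were kept in the main sums and left out in an alternative. No doublet was otherwise removed.

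UMIs were summed per library and class (at least 20 cells) and tested with edgeR 4.0.16 (quasi-likelihood, TMM, filterByExpr, Benjamini-Hochberg over all genes tested, threshold 0.05, checked on simulated data). Stage contrasts were E16.5 minus E12.5 with 3 stages in the fit. Fitted log2 differences are relative to the TMM scale, and log2 ratios of the CPM differ from them by a median of -0.16 to 0.19 over the comparisons. Standard errors were the log2 difference divided by the square root of F. A sum of 0 allows up to 3 UMIs. The named pathway genes were the 3 called genes with the greatest absolute log2 difference in a comparison, and among those Nrarp, Lfng, Dlk1 and Jag2 were described.

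Alternatives were DESeq2 1.42.0 (also its size factors in edgeR), no filter on low counts, mitochondrial genes left out of the sums, resolution 1.6, doublets left out, at least 5000 UMIs, the study's mitochondrial ceilings, a replicate block and leaving out each library. Barcodes under 1% mitochondrial UMIs and the Wnt4-led endocardial clusters were left out, and mesenchyme was limited to clusters with Cthrc1 among their leading genes, as alternatives chosen after seeing the data. Same-numbered libraries of different stages correlated in their deviations by -0.07 to 0.26. In ventricular cells all 3 pairs were over 0.1 (0.17, 0.17 and 0.26), and in class comparisons both sums share the library.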

Additional observations from a re-analysis of the deposited data

Results flagged for a closer look

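The 4 results below are given again because the change from E12.5 to E16.5 differed between neighbouring classes by a test of the difference itself. Jag1 changed by -0.91 on the log2 scale in ventricular relative to atrial cardiomyocyte-like cells (adjusted p = 0.00224, n = 2 libraries per stage and class), falling in both classes in both libraries. Hes1 changed by -1.13 in the same comparison (adjusted p = 0.00106), falling in ventricular and rising in atrial cells between E12.5 and E16.5. Without the first E16.5 library it did not pass. In atrial cells Hes1 was highest at E14.5, and in ventricular cells its E12.5 and E14.5 values overlapped. Its free RNA level, given above, was lower at E16.5 than at E12.5, and the part of this was not tested.

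Hey1 changed by 1.46 in vessel relative to endocardium-like cells (adjusted p = 0.00368), on 19 and 12 vessel UMIs at E12.5, and without the second E12.5 library it did not pass (adjusted p = 0.0888). Hey2 had a fitted value of 4.38 in the same comparison (adjusted p = 0.0328). With 1 and 0 vessel UMIs at E12.5 this value depends on the fit's prior count and is neither a size nor a bound, and Hey2 entered the test through the sums in which it is higher. Without the Wnt4-led endocardium-like clusters it did not pass (adjusted p = 0.376), nor without either E12.5 library (adjusted p = 0.101 and 0.25) or the second E16.5 library (adjusted p = 0.0691). With 2 libraries per stage no sample could be tested for standing apart from its group.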

How the results depend on the processing

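Of 45 calls of members in the 8 comparisons, 29 kept direction and threshold under every alternative run and 16 lost the threshold or direction under at least 1. Of 704 alternative values of called members, 653 passed in the same direction. With DESeq2 3 endocardial members passed in place of 5 and 3 vessel members in place of 6. Leaving out 1 library gave counts of 5 to 7 (ventricular stages), 2 to 3 (atrial), 3 to 6 (endocardium), 1 to 6 (vessel), 4 to 7 (mesenchyme), 4 to 6 (chambers) and 7 in each case (vessel against endocardium), and of 0 to 3 and 1 to 2 for the stage differences between vessel and endocardium and between the chambers. The endocardial count was 3 without E16.5 replicate 2 and the vessel count 1 without E16.5 replicate 1. The directions that turned were Hey2 across endocardial stages (1.19) and Jag1 in vessel against endocardium (0.49), both without the Wnt4-led clusters, Jag1 across mesenchymal stages at resolution 1.6 (-0.45), and, with only mesenchyme-like clusters that have Cthrc1 among their leading genes, Notch3 across mesenchymal stages (-0.028) and Hes1 in mural against mesenchyme-like cells (-0.62). The cause was not tested. With the replicate block, endocardial Hes1 passed (-0.25, adjusted p = 0.0277), vessel Hey2 did not (adjusted p = 0.0524, on 1 and 0 UMIs at E12.5), and in the vessel against endocardium stage difference Heyl (adjusted p = 0.044, on 0 vessel UMIs at E12.5) and Hes1 (0.38, adjusted p = 0.0465) passed. The block changed no other call. The mural comparison could not be fitted without 1 library, for lack of residual degrees of freedom, and mural cells had no stage comparison, since mural sums reached 20 cells in both libraries at E16.5 only. With no filter on low counts the median over all genes was 0.18 against 0.06 in vessel stages, -0.29 against -0.06 in vessel against endocardium (0.24 against 0.06 for its stage difference), and 0.12 in the chambers and -0.12 in the mural comparison, both near 0 with the filter. Depth limits vessel values at E12.5, atrial Notch3 and every cardiomyocyte value of Dll4.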

Other observations

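Small clusters outside the 6 classes held some of the highest levels of single members, given here as values. Unnamed clusters with Eln, Fbln5 and Sfrp2 as their 3 leading genes, genes of elastic matrix and Wnt inhibition, held 207 and 257 cells at E12.5 and 29 and 37 at E14.5. The mural marker Rgs5 was also among their leading genes at both stages, with 2 of the 8 mural markers detected. In these Jag1 was at 32.4 and 45.7 CPM at E12.5 and at 72.5 and 111 at E14.5, and Heyl at 19.3 and 24.8 and then 43.5 and 63.0 CPM. Notch3 was at 27.5 and 34.6 and then 58.0 and 60.0 CPM. An Eln-led mesenchyme-like cluster of 205 cells in the P3 matrix held Jag1 at 58.1 and Heyl at 166 CPM.

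An endothelial cluster led by Ccl21a and Lyve1, genes known from lymphatic endothelium, held 11 and 9 cells at E16.5. Hes1 was at 764 and 493 CPM there, against 257 and 242 CPM in vessel cells, and Notch1 at 112 and 114 CPM. Lfng was at 25.9 and 31.6 CPM. The cells were too few for a sum in the tests.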
